A study of Mus musculus with 15 samples.

Results

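The genes described here encode interferon-induced GTPases of the mouse: the guanylate-binding proteins (GBPs) Gbp2, Gbp3, Gbp5, Gbp6, Gbp7 and Gbp9, and the immunity-related GTPases (IRGs) Irgm1, Irgm2, Igtp and Iigp1. These 10 genes were chosen on a measured result, the higher level of Gbp5 and Gbp3 in the pancreas of MC mice than in that of their controls. All 10 were listed among the 15175 genes of the count table for MC and among the 49585 genes of each of the tables for HC and KMC. Because the choice used MC against its control, the values of that contrast are given as a description with no test. The measured result behind the choice did not use the HC and KMC libraries, and tests are given for those comparisons. Earlier results of these data were known when the members were listed.

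GBPs and IRGs are large GTPases of cell-autonomous immunity, made at low levels at rest and induced by interferons, above all by interferon gamma acting through its receptor and JAK kinases. They load onto vacuoles and membranes that hold intracellular microbes, where effector IRGs such as Iigp1 and the GBPs disrupt the membrane, while the regulatory IRGs (Irgm1, Irgm2 and Igtp) keep the effectors inactive on the cell's own membranes. Many cell types, leukocytes and epithelial cells among them, make these proteins after exposure to interferon, and an injured pancreas holds both.

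Gene-level RNA-seq counts were available for 15 libraries of C57BL/6 pancreas, each made from the pooled RNA of 3 mice. The B control libraries (n = 3) and the MC libraries (M46/B, n = 3; M46 is a kinase-dead form of HPK1, the kinase encoded by Map4k1) came from mice labelled 2 months old. The WT control libraries (n = 2) and the HC libraries (HPK1/B, n = 3; an HPK1 transgene) came from mice labelled 4 months old. The series' design text gives cerulein, a secretagogue that causes pancreatitis, for wild-type, HC and MC mice, and the study's text gives it for the littermate controls of its RNA-seq of HC and MC as well, at a younger age than the 4 months of the label. Its methods also mention PBS for littermates without tying it to a library. The KMC libraries (n = 2, 9 months) carried M46 on the background of the KC libraries (n = 2, 15 months), which are their control. In all transgenic groups the alleles were switched on by Bac-cre, a tamoxifen-inducible Cre under the acinar elastase I promoter, so that recombination was directed to acinar cells. The labels call the KC and KMC tissue pancreas, whereas the study's methods describe tumour samples.

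Total counts ran from 29766575 to 34144236 in the MC table, from 31791225 to 37829604 in the HC table and from 30208416 to 38745907 in the KMC table. Levels are counts per 1000000 counts (CPM), scaled within each table by the trimmed mean of M-values (TMM). Different genes are ranked by level only as CPM per kilobase of exon. The ratio of the GTPase sum to Ptprc uses CPM without exon length, and is compared only between libraries of a table. A count of 3, taken as the floor of detection, equals 0.0357 CPM in KMC library 2 and 0.204 CPM in KC library 1, the lowest and highest floors of the 15 libraries. This floor covers counting error only. Nothing in the labels says that the pools of a group came from separate litters or days, so p-values measure the spread between these pools.

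Several libraries stood apart in Map4k1, in sex-linked genes or in their acinar share. Map4k1 was at 15.4 and 11.5 CPM in the WT control libraries and at 7.33, 5.05 and 7.93 CPM in the libraries labelled HC. The libraries labelled HC, with an HPK1 transgene, thus held less Map4k1 than their controls (log2 fold change -0.99, SE 0.25, edgeR adjusted p 0.145), and every direction drawn from them below is that of libraries so labelled. The study's text reports HPK1 in acinar cells of HC mice and high HPK1 kinase activity in their pancreas. From its RNA-seq it reports interferon responses as inhibited in HC. Map4k1 was at 3.80, 4.14 and 2.34 CPM in B control and at 8.32, 6.79 and 7.51 CPM in MC. It was at 0.545 and 1.55 CPM in KC and at 5.92 and 11.4 CPM in KMC (log2 fold change 2.99, SE 0.60, edgeR adjusted p 0.0796). Map4k1 is also a gene of blood cells, and how much of it came from a transgene was not tested. The study made its transgenes from cDNA, and whether their reads were counted under Map4k1 was not tested. Map4k1 levels therefore cannot show whether a library matches its label.

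The sex of the pooled mice differed as well. Xist, which is transcribed from the inactive X chromosome of females, was at 894 and 929 CPM in WT control, at 801 and 579 CPM in HC libraries 1 and 2 and at 0.761 CPM in HC library 3. The Y-linked Ddx3y had 0 counts in those first 4 libraries and 48.4 CPM in HC library 3. In the last table Xist was at 0.681 and 0.348 CPM in KC against 406 and 306 CPM in KMC, and Ddx3y was at 10.7 and 17.3 CPM in KC and had 0 counts in both KMC libraries. KMC therefore differed from KC in M46, in labelled age and in sex, and the parts of these in any difference below cannot be told apart. Neither Xist nor Ddx3y was listed in the MC table.

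The acinar share of the RNA also varied. Genes of the acinar list, mostly digestive enzymes, took 52.5%, 43.6% and 58.2% of counts in B control and 47.6%, 38.5% and 37.7% in MC. They took 8.55% and 6.59% in WT control, and 6.56%, 8.75% and 5.70% in the libraries labelled HC. In the last table the share was 72.6% and 63.2% for KC but 51.4% and 26.2% for KMC. Acinar shares were lowest in the HC table, and lower in KMC than in KC. Scaling by library size alone in place of TMM moved the median over all genes of the log2 fold change in KMC against KC from 0.03 to 1.47. Differences in KMC are reported on the TMM scale. The median of the 10 GTPase genes minus the median of all genes was 1.66 with TMM and 1.64 with library size alone. A change of scaling moves all genes by about the same amount, so this difference could hardly change and nothing is read from it.

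Summed over the 10 genes, the GTPase level was 77.9, 74.1 and 72.3 CPM in the B control libraries and 160.8, 353.8 and 371.7 CPM in the MC libraries. The MC libraries were all above their controls, and MC library 1 stood below the others of its group. The sum was 275.9 and 186.2 CPM in WT control and 175.4, 147.0 and 137.9 CPM in the libraries labelled HC, so that the highest HC library lay just under the lowest control. It was 42.2 and 43.0 CPM in KC and 122.6 and 114.7 CPM in KMC, where each KMC library was above both KC libraries. The tables were normalised separately, so the sums are compared only within a table.

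**Figure D1:**
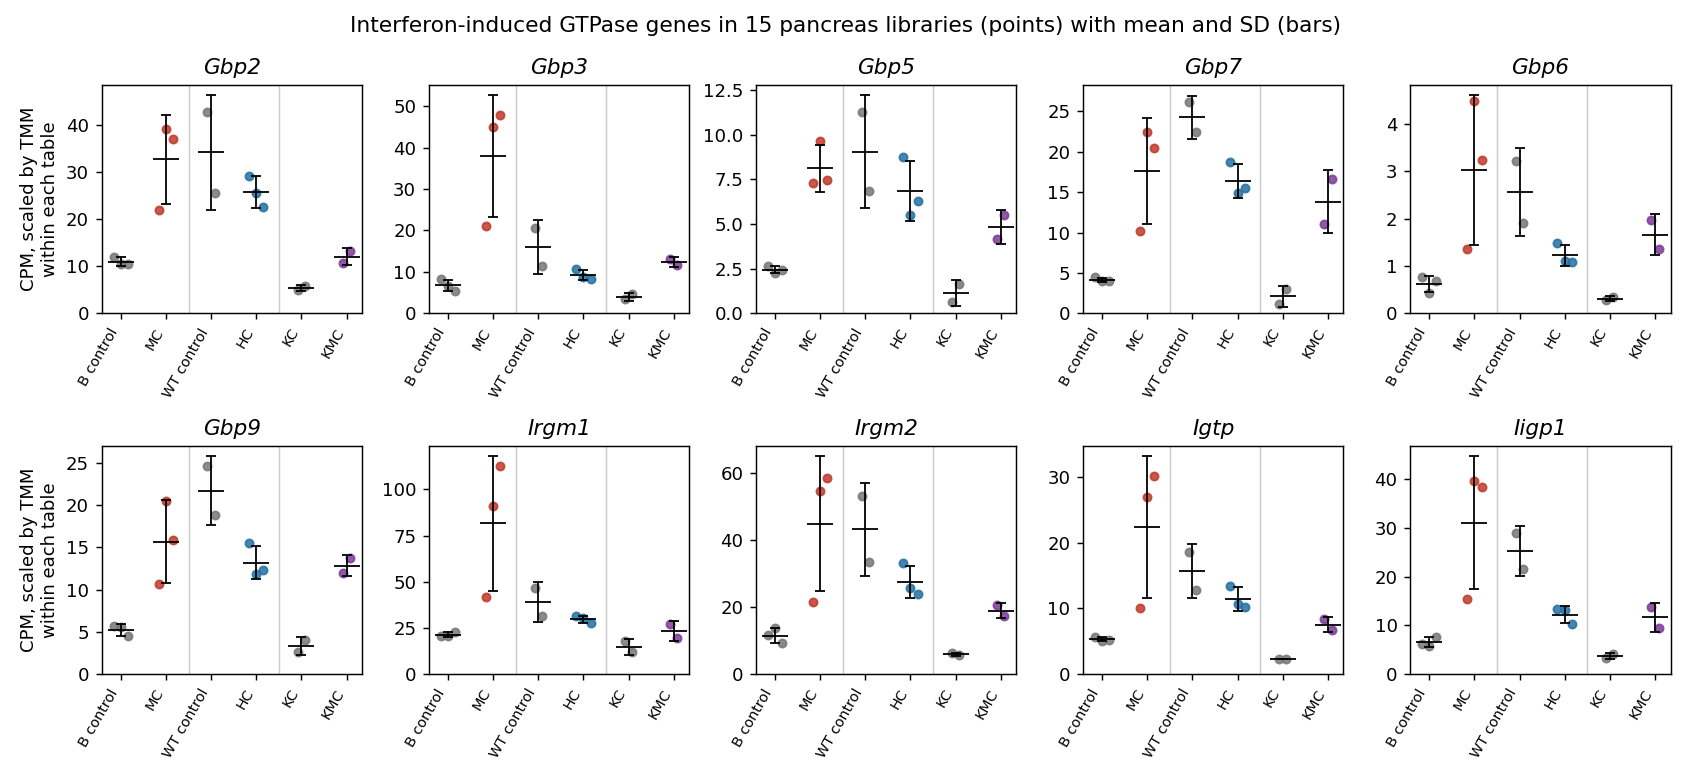
Level of each of the 10 GTPase genes (y axis, CPM scaled by TMM within each table) in each library (points) of the 6 groups (x axis), with the group mean and SD (bars) and grey lines between the 3 tables. MC and KMC libraries sit above their own controls for all 10 genes, and HC libraries sit below both WT control libraries for 7 of them.

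In the contrast that chose them, all 10 genes were higher in each MC library than in any B control library, with log2 fold changes between 1.58 (Gbp2) and 2.50 (Gbp3) and a median of 2.03, beside a median of -0.02 over the 13902 genes tested. In that contrast 10.9% of genes were higher without overlap, and edgeR called 0 of all genes (0.0%; 2038 had an unadjusted p under 0.05, and DESeq2 called 475). Nothing is read from these counts, because the genes were chosen by this contrast.

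In the libraries labelled HC, the fitted log2 fold change against WT control was negative for all 10 genes, from -1.06 (Gbp6) to -0.40 (Irgm1), and the median was -0.61, beside -0.00 over the 18407 genes tested. For 7 of the 10 every HC library was below both controls, as were 16.1% of all genes tested; Gbp2, Gbp5 and Igtp overlapped. None of the 10 was called by edgeR (adjusted p of at most 0.05 and a log2 fold change of at least 1 in size), where 0.565% of genes were called. By the same tool 6 of the 10 were lower at an unadjusted p under 0.05, as were 7.47% of genes, and DESeq2 called 1 of the 10, Iigp1, beside 1.21% of genes that it called lower. The direction hung in part on WT control library 1: without it the median was -0.30, and the values of Gbp2 and Gbp5 were 0.01 and 0.00. Without the male HC library 3 the median was -0.56 and all 10 stayed negative.

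In KMC against KC, the fitted log2 fold change was positive for all 10 genes, from 0.66 (Irgm1) to 2.69 (Gbp7), with a median of 1.69 beside 0.03 over the 15733 genes tested. Both KMC libraries were above both KC libraries for all 10, which held for 34.4% of all genes tested. edgeR called 0 of the 10, where it called 0.0191% of genes; 9 of the 10 were higher at an unadjusted p under 0.05, as were 16.1% of genes, and DESeq2 called 8 of the 10 (all but Gbp2 and Irgm1), beside 9.93% of genes that it called higher. The smallest edgeR adjusted p among the 10 was 0.0796, shared by Gbp7, Gbp9 and Irgm2. These edgeR calls depended on the scaling. With library size alone, which raises all genes, it called 10 of the 10 (median 3.11) and 4714 genes in all. With library size without acinar genes it called 9 of the 10 (median 2.20) and 1470 genes in all. Without KMC library 1, edgeR called 5 of the 10 (Gbp3, Gbp5, Gbp7, Gbp9 and Irgm2) and 2312 genes in all, and without any one of the other libraries it called 0 of the 10.

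**Figure D2:**
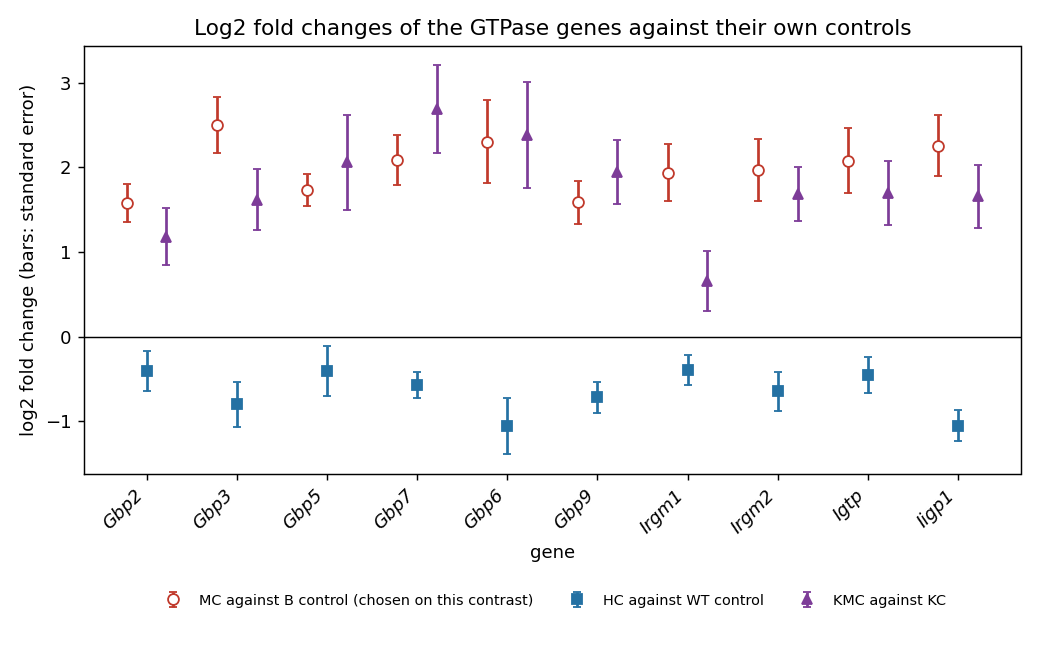
Log2 fold change (y axis) of each GTPase gene (x axis) in MC against B control (open circles, the contrast on which the genes were chosen), HC against WT control (squares) and KMC against KC (triangles), with standard errors as bars. HC values lie between -1.06 and -0.40, where Gbp2 and Gbp5 turn to 0.01 and 0.00 without WT control library 1, and KMC values lie between 0.66 and 2.69.

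Gbp5, which is prenylated and has been linked to assembly of the NLRP3 inflammasome, lies in the GBP cluster of chromosome 3 with Gbp7, Gbp3 and Gbp2. It was at 2.64, 2.26 and 2.43 CPM in B control and at 7.27, 9.64 and 7.46 CPM in MC. The MC libraries lay close together for this gene, and the lowest was above every control (log2 fold change 1.73, SE 0.19). Gbp5 was at 11.3 and 6.84 CPM in WT control and at 8.74, 5.50 and 6.28 CPM in the libraries labelled HC. These groups overlapped, since HC library 1 was above WT control library 2 (log2 fold change -0.40, SE 0.30, edgeR adjusted p 0.574). It was at 0.613 and 1.63 CPM in KC, from 9 and 42 counts, and at 4.15 and 5.48 CPM in KMC. Both KMC values were above both KC values (log2 fold change 2.06, SE 0.56, edgeR adjusted p 0.105).

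Gbp3, in the same cluster of chromosome 3, had the largest log2 fold change of the 10 in the contrast that chose them. It was at 8.23, 6.49 and 5.39 CPM in B control and at 20.99, 44.9 and 47.9 CPM in MC (log2 fold change 2.50, SE 0.33). MC library 1 lay between the controls and the other libraries of its group. Gbp3 was at 20.6 and 11.4 CPM in WT control and at 10.6, 8.74 and 8.18 CPM in the libraries labelled HC (log2 fold change -0.80, SE 0.27, edgeR adjusted p 0.232). All HC values were below the lower control, by a small margin for HC library 1. It was at 3.34 and 4.64 CPM in KC and at 13.2 and 11.5 CPM in KMC (log2 fold change 1.62, SE 0.36, edgeR adjusted p 0.0812).

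Gbp7, linked in macrophages to the NADPH oxidase and to autophagic delivery, had the largest difference of the 10 in KMC. It was at 1.16 and 3.02 CPM in KC and at 11.0 and 16.6 CPM in KMC. The KC libraries differed from each other, and both lay below both KMC libraries (log2 fold change 2.69, SE 0.52, edgeR adjusted p 0.0796). DESeq2 gave an adjusted p of 5.88e-05, and over all alternatives the adjusted p ran from 3.58e-05 to 0.534. Leaving out 1 library at a time gave values from 2.18 to 3.57. Gbp7 was at 26.2 and 22.4 CPM in WT control and at 18.7, 14.9 and 15.5 CPM in the libraries labelled HC. All HC values were below both controls (log2 fold change -0.57, SE 0.15, edgeR adjusted p 0.167), and they stayed lower when any one library was left out, from -0.68 to -0.45. In the MC table Gbp7 was at 4.46, 4.02 and 4.00 CPM in B control and at 10.1, 22.4 and 20.4 CPM in MC. Part of its reads is uncertain, since 11.3% of its exon bases lie in exons of Gm43802 on the same strand and 562 of its 5612 stretches of 100 bases also occur in Gm43802 or Gbp3.

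Gbp2, a prenylated GBP that is carried to vacuoles of intracellular parasites, was the most abundant member per kilobase in B control, WT control and HC. It ranged from 10.4 to 12.03 CPM in B control and from 21.9 to 39.2 CPM in MC. In the HC table it ranged from 25.6 to 42.9 CPM in WT control and from 22.6 to 29.3 CPM in the libraries labelled HC, and the groups overlapped (log2 fold change -0.41, SE 0.23, edgeR adjusted p 0.453). It ranged from 4.83 to 5.73 CPM in KC and from 10.8 to 13.3 CPM in KMC (log2 fold change 1.18, SE 0.34, edgeR adjusted p 0.113). Gbp2 and Gbp5 were the members with the least clear difference in the HC table.

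Gbp9 and Gbp6 lie in a second GBP cluster, on chromosome 5. Gbp9 ranged from 4.45 to 5.65 CPM in B control, from 10.7 to 20.6 CPM in MC, from 18.8 to 24.7 CPM in WT control, from 11.9 to 15.5 CPM in HC, from 2.59 to 4.03 CPM in KC and from 11.9 to 13.7 CPM in KMC. Its log2 fold change was -0.72 in HC (SE 0.19, edgeR adjusted p 0.156) and 1.94 in KMC (SE 0.38, edgeR adjusted p 0.0796). The HC and KMC libraries did not overlap with their controls for this gene. Gbp6 was the least abundant member per kilobase in all 6 groups, with 4 and 9 counts in KC and 80 and 114 counts in KMC (log2 fold change 2.38, SE 0.63, edgeR adjusted p 0.103). It had 112 and 74 counts in WT control and 50, 35 and 34 counts in the libraries labelled HC (log2 fold change -1.06, SE 0.33, edgeR adjusted p 0.213). Values of Gbp6 are uncertain: 64.5% of the 100-base stretches of its transcripts also occur in other genes, among them Gm43302, Gbp10, Gbp11, Gbp8, Gbp4 and Gbp9, and 29.0% of its exon bases lie in exons of Gm43302 on the same strand.

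Irgm1, a regulatory IRG required for control of mycobacteria and linked to autophagy, differed from the others in its small difference in KMC. It was at 17.6 and 11.7 CPM in KC and at 26.9 and 19.3 CPM in KMC. The higher KC library lay just under the lower KMC library (log2 fold change 0.66, SE 0.36, edgeR adjusted p 0.274), and 27.7% of the genes tested had a higher log2 fold change, against 4.21% for Gbp7. Whether Irgm1 differed from the other members was not tested. Irgm1 was at 46.6 and 31.5 CPM in WT control and at 31.3, 30.1 and 27.5 CPM in the libraries labelled HC, where HC library 1 was almost level with WT control library 2 (log2 fold change -0.40, SE 0.18, edgeR adjusted p 0.342). It was at 20.8, 20.3 and 23.0 CPM in B control and at 41.5, 91.0 and 112.8 CPM in MC.

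Irgm2, a regulatory IRG of the Golgi, and Igtp, a regulatory IRG of the endoplasmic reticulum also called Irgm3, overlap on chromosome 11. Irgm2 was at 6.195 and 5.57 CPM in KC and at 20.6 and 17.3 CPM in KMC (log2 fold change 1.69, SE 0.32, edgeR adjusted p 0.0796). The KC libraries lay close together and well under both KMC libraries. It was at 53.0 and 33.3 CPM in WT control and at 33.1, 25.6 and 23.9 CPM in the libraries labelled HC (log2 fold change -0.65, SE 0.23, edgeR adjusted p 0.251). It was at 11.5, 13.7 and 9.17 CPM in B control and at 21.6, 54.8 and 58.4 CPM in MC. Igtp ranged in the HC table from 12.8 to 18.6 CPM in WT control and from 10.2 to 13.5 CPM in HC, with an overlap (log2 fold change -0.46, SE 0.22, edgeR adjusted p 0.372). It was at 2.32 CPM in both KC libraries and at 8.38 and 6.71 CPM in KMC (log2 fold change 1.70, SE 0.38, edgeR adjusted p 0.0825). The annotated exons of these genes share 162 bases on the same strand, 8.01% of those of Igtp and 4.39% of those of Irgm2, so that a small part of their reads could be counted for either or for neither.

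Iigp1, also called Irga6, is the effector IRG of the group, a GTPase that forms oligomers on the vacuole of Toxoplasma. It was at 28.9 and 21.6 CPM in WT control and at 13.3, 13.1 and 10.2 CPM in the libraries labelled HC. All HC values were well below both controls. Its log2 fold change of -1.05 (SE 0.19) had the smallest edgeR adjusted p of the 10 genes in this comparison, 0.0687, which misses the threshold; DESeq2 gave an adjusted p of 0.000121, and over all alternatives the adjusted p ran from 0.000121 to 0.325. Leaving out 1 library at a time gave values from -1.25 to -0.83, and without the male HC library 3 it stayed lower. Iigp1 was at 3.27 and 4.06 CPM in KC and at 13.7 and 9.52 CPM in KMC (log2 fold change 1.66, SE 0.37, edgeR adjusted p 0.0825). It was at 6.18, 5.78 and 7.64 CPM in B control and at 15.3, 39.7 and 38.3 CPM in MC.

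Per kilobase of exon, the lower end of the order of mean levels was alike in every group. Gbp6 was lowest and Gbp5 next to lowest in each of the 6 groups, and in each group the ranges of these 2 genes over libraries did not overlap. The place of Gbp6 is uncertain, since 64.5% of its 100-base stretches also occur in other genes. In KC the range of Gbp5 overlapped with that of Gbp7, the next above it, so that the place of Gbp5 is not settled there. Gbp2 led in B control (4.37 ± 0.356 CPM per kilobase, SD, n = 3), WT control (13.6 ± 4.87, n = 2) and HC (10.3 ± 1.33, n = 3). Irgm1 led in MC (14.1 ± 6.29, n = 3) and KC (2.52 ± 0.723, n = 2), and Irgm2 led in KMC (5.13 ± 0.638, n = 2). The range of the leader overlapped with that of the next gene in WT control (Irgm2), MC, KC and KMC (Gbp2 in each of these 3). It led without overlap only in B control and HC. In HC the margin was very small, with Gbp2 at 9.00 CPM per kilobase in library 3 and Irgm2 at 8.96 in library 1. In MC the neighbours in the order from Irgm1 through Gbp2, Irgm2, Gbp3, Igtp, Iigp1 and Gbp7 to Gbp9 overlapped in their ranges, so that this part of the order is not settled. In HC, Gbp2 did not overlap with Irgm2, the next in order, and Iigp1 was below Gbp9 without overlap, whereas in WT control the ranges of Iigp1, Gbp7 and Gbp9 overlapped. Exon lengths are unions over all annotated transcripts, which understates the level per kilobase of genes with long rare exons.

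Of 15 further genes annotated as GBP or IRG family members or as giant GTPases, 13 were tested in the HC and KMC tables. In the libraries labelled HC all 13 had a negative log2 fold change (median -1.09); edgeR called 0, 11 had an unadjusted p under 0.05, 11 did not overlap with the controls, and DESeq2 called 4 lower (F830016B08Rik, Gm12250, Gm4070 and Tgtp1), beside 7.47%, 16.1% and 1.21% of all genes. In KMC all 13 had a positive log2 fold change (median 2.44); edgeR called 0, 11 had an unadjusted p under 0.05, 13 did not overlap, and DESeq2 called 8, beside 16.1%, 34.4% and 9.93% of all genes. In the MC table, of those listed, 12 were tested, all with a positive value (median 2.15). Signs of the 13 genes were the same under every alternative run. The list thus lay to the same side as the 10 chosen genes in each table.

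Among the GBPs of that list, Gbp4 differed by -0.69 (SE 0.21) in HC and 1.24 (SE 0.48) in KMC on the log2 scale, and Gbp8 by -0.85 (SE 0.39) and 3.47 (SE 0.68). Gbp2b, which lies between Gbp3 and Gbp2, had at most 43 counts in any library, with log2 differences of -1.38 (SE 0.51) and 0.65 (SE 0.74). Gbp10 and Gbp11 were near the floor and were filtered out: Gbp10 had 0 to 3 counts in HC, 6 and 7 in WT control, 0 and 2 in KC and 6 and 22 in KMC, and Gbp11 had 4 to 9, 10 to 17, 0 to 4 and 9 to 10 counts in the same groups. Of the effector IRGs, the log2 differences in HC and KMC were -1.24 (SE 0.36) and 1.11 (SE 0.59) for Tgtp1, -1.09 (SE 0.37) and 1.49 (SE 0.53) for Tgtp2, and -0.92 (SE 0.30) and 2.44 (SE 0.39) for Ifi47, the most abundant gene of the list per kilobase in each table. Tgtp1 and Tgtp2 are near-identical copies, and the split of reads between them is uncertain.

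For the remaining family members, log2 differences in HC were -1.20 for Gm12250 (SE 0.27), -0.71 for 9930111J21Rik1 (SE 0.32), -0.77 for 9930111J21Rik2 (SE 0.24), -0.93 for Gm4951 (SE 0.31), -1.28 for F830016B08Rik (SE 0.22), -1.26 for Gvin1 (SE 0.52) and -1.31 for Gm4070 (SE 0.29). F830016B08Rik had the smallest edgeR adjusted p of these genes in HC, 0.0642. In KMC the log2 differences were 3.32 for Gm12250 (SE 0.66), 2.56 for 9930111J21Rik1 (SE 0.72), 2.43 for 9930111J21Rik2 (SE 0.71), 2.98 for Gm4951 (SE 0.60), 2.84 for F830016B08Rik (SE 0.78), 2.78 for Gvin1 (SE 0.79) and 2.44 for Gm4070 (SE 1.02). Gvin1 and F830016B08Rik each had 1 count in KC library 1 and Gm4070 had 0, so the size of these differences depends on few reads. Gvin1 and Gm4070 encode very large inducible GTPases with near-identical relatives, and their counts are uncertain for that reason.

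Among the ligands, interferon gamma itself was at or near the floor. Ifng had 6 and 5 counts in WT control, 5, 1 and 0 counts in the libraries labelled HC, 0 counts in both KC libraries and 2 and 3 counts in KMC, and was not listed in the MC table. Ifnb1, Ifna2, Ifna4, Ifnl2 and Ifnl3 had 0 counts in every library of the HC and KMC tables, which allows up to 3 counts in each. A difference in ligand RNA was therefore not detectable at this depth.

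Of the 26 ligands, receptors and signalling genes listed for the interferon pathway, 20 were tested in each table, with a median log2 fold change of -0.10 in HC and 0.97 in KMC; edgeR called 0 in either, 2 and 11 had an unadjusted p under 0.05, and DESeq2 called 0 in HC and 6 in KMC. Ifngr1, the binding chain of the interferon gamma receptor, was the most abundant gene of the list per kilobase in the HC table, at 191 and 186 CPM in WT control and at 185, 216 and 191 CPM in the libraries labelled HC. These groups overlapped (log2 fold change 0.07, SE 0.11, edgeR adjusted p 0.832). It was at 16.9 and 17.2 CPM in KC and at 28.7 and 57.7 CPM in KMC (log2 fold change 1.34, SE 0.41, edgeR adjusted p 0.123). Ifngr2, the second chain, had log2 fold changes of -0.02 (SE 0.12) and 0.72 (SE 0.40) and overlapped between groups in both comparisons. Jak1, the most abundant per kilobase in the KMC table, had log2 fold changes of -0.15 (SE 0.12) and 0.20 (SE 0.39). In the MC table Irf7 led the list per kilobase. The 2 genes at an edgeR unadjusted p under 0.05 in HC were lower, beside 7.47% of all genes tested. The 11 in KMC were higher, beside 16.1% of all genes. DESeq2 called 1.21% of all genes lower in HC and 9.93% higher in KMC.

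Irf1, an interferon-induced factor that acts on GBP and IRG promoters, had log2 fold changes of -0.16 (SE 0.21) in HC and 0.93 (SE 0.34) in KMC. Irf8, a factor of myeloid cells, had the smallest p of the list in both comparisons. It was at 65.9 and 47.6 CPM in WT control and at 41.5, 28.2 and 36.6 CPM in HC (log2 fold change -0.68, SE 0.20, edgeR adjusted p 0.196), and at 3.13 and 5.11 CPM in KC and 21.4 and 38.2 CPM in KMC (log2 fold change 2.84, SE 0.44, edgeR adjusted p 0.0796).

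Other targets of interferon gamma had a median log2 fold change of -0.59 in HC and 2.05 in KMC over the 20 of 21 genes tested. edgeR called 0 in both. In HC 8 had an edgeR unadjusted p under 0.05, all lower, beside 7.47% of all genes tested. DESeq2 called Cxcl9 and Cxcl10 lower there, beside 1.21% of all genes. In KMC 14 were higher at an edgeR unadjusted p under 0.05, beside 16.1% of all genes, and 1 (Psmb10) was lower. DESeq2 called 14 higher in KMC, beside 9.93% of all genes, and 1 lower. Cxcl9, a chemokine for activated T cells, had the smallest p in HC, at 16.1 and 8.58 CPM in WT control and at 3.55, 1.46 and 1.08 CPM in the libraries labelled HC (log2 fold change -2.60, SE 0.53, edgeR adjusted p 0.0952). H2-Eb1, a chain of MHC class II, had the smallest p in KMC, at 21.9 and 21.8 CPM in KC and at 143 and 228 CPM in KMC (log2 fold change 3.09, SE 0.47, edgeR adjusted p 0.0796). The most abundant genes of the list per kilobase were Cd74, the class II invariant chain, in the HC table (log2 fold change -0.77, SE 0.34) and B2m, the light chain of MHC class I, in the KMC table (log2 fold change 1.04, SE 0.50).

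All 20 genes best known from the type I interferon response were tested in the HC and KMC tables, with medians of -0.38 in HC and 1.82 in KMC. edgeR called 0 in both. In HC 2 were lower at an edgeR unadjusted p under 0.05, beside 7.47% of all genes tested, and 1 (Oasl1) was higher. DESeq2 called Zbp1 lower in HC, beside 1.21% of all genes, and Oasl1 higher. In KMC 17 were higher at an edgeR unadjusted p under 0.05, beside 16.1% of all genes. DESeq2 called 14 higher in KMC, beside 9.93% of all genes. Zbp1, a sensor of Z-form nucleic acids, had the smallest p in both comparisons: it was at 16.0 and 8.19 CPM in WT control and at 4.70, 4.13 and 4.92 CPM in HC (log2 fold change -1.40, SE 0.30, edgeR adjusted p 0.104). It was at 1.70 and 1.01 CPM in KC and at 10.1 and 9.78 CPM in KMC (log2 fold change 2.90, SE 0.43, edgeR adjusted p 0.0796). Bst2, or tetherin, was the most abundant of the list per kilobase in each table, with a log2 fold change of -0.67 (SE 0.22) in HC and -0.03 (SE 0.48) in KMC, where its sign changed between alternatives.

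Partners of the GTPases in cell death and membrane attack, caspases, inflammasome genes and the ATG8 conjugation system that helps to place GBPs and IRGs, did not lie to 1 side as a list. In KMC the caspase and inflammasome genes (Casp1, Casp4, Gsdmd, Aim2, Nlrp3, Il1b and Il18) were all higher without overlap. This held for 34.4% of all genes tested. Their log2 fold changes ran from 1.22 (Il18) to 3.16 (Nlrp3). The 8 negative values in KMC were all of the ATG8 conjugation system, where Atg7 (0.42) and Atg12 (0.08) were positive. The median over 17 genes was 0.05 in HC and 0.08 in KMC. edgeR called 0 in both. In HC 3 were higher and 3 lower at an edgeR unadjusted p under 0.05, beside 1544 and 1375 of the 18407 genes tested. In KMC 6 were higher and 2 lower at that limit, beside 2535 and 1492 of the 15733 genes tested. DESeq2 called 1 (Il18) in HC and 6 in KMC, where it called 9.93% of all genes higher. Il18, a cytokine matured by caspase 1, had the smallest p in HC, with the opposite sign to the GTPases: it was at 12.7 and 11.8 CPM in WT control and at 33.8, 43.7 and 25.1 CPM in the libraries labelled HC (log2 fold change 1.48, SE 0.24, edgeR adjusted p 0.0596). Casp1 itself was at 10.3 and 7.04 CPM in WT control and at 6.17, 4.07 and 5.17 CPM in HC (log2 fold change -0.76, SE 0.26, edgeR adjusted p 0.245). In KMC, Casp1 had the smallest p, at 0.545 and 0.929 CPM in KC and at 3.51 and 5.84 CPM in KMC (log2 fold change 2.63, SE 0.54, edgeR adjusted p 0.0796). Gabarap, an ATG8 protein and the most abundant of the list per kilobase, had log2 fold changes of 0.23 (SE 0.13) in HC and -1.09 (SE 0.55) in KMC, where the sign changed in 1 of 11 alternatives.

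The genes whose pattern over the 15 libraries was most like that of the GTPases were sought among 12063 genes with a mean of at least 1 CPM in each table, as the root-mean-square (RMS) difference in log2 level, each library set against the controls of its own table, from the mean profile of the 9 members that met the same limit (all but Gbp6). Among the nearest were Herc6 (0.228), Ifi203 (0.262) and Epsti1 (0.270), beside a median of 1.096 over all genes compared. All 3 are interferon-stimulated genes. Among the members themselves, Igtp (0.142) and Irgm2 (0.154) lay closest to the mean profile, and Gbp7 (0.407) and Irgm1 (0.404) lay farthest. With a pseudocount of 2 in place of 0.5, Phf11b, Epsti1 and Ifi47 were among the nearest. The likeness covers the contrast on which the members were chosen, and no test is given for it.

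The mean profile itself separated the MC libraries. Averaged over the 9 members, the log2 difference from the mean of the controls was 1.11 in MC library 1, 2.17 in MC library 2 and 2.13 in MC library 3. It was -0.36, -0.64 and -0.71 in the libraries labelled HC, while the 2 WT control libraries lay at 0.28 and -0.28 around their own mean. The KMC libraries lay at 1.58 and 1.55, and the KC libraries at -0.15 and 0.15. The spread between the WT control libraries was thus of the same order as the difference of HC library 1 from their mean.

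The 4 pan-leukocyte markers lay to the same side as the GTPase genes in HC and in KMC, without being called by edgeR. In whole pancreas, more cells of a type and more RNA per cell cannot be told apart. These genes (Ptprc, Cd52, Laptm5 and Coro1a) summed to 103, 157 and 54.7 CPM in B control and to 184, 201 and 277 CPM in MC. They summed to 581 and 350 CPM in WT control and to 304, 198 and 268 CPM in the libraries labelled HC, where all 4 were lower at an unadjusted p under 0.05, edgeR called 0 and DESeq2 called Cd52. They summed to 24.6 and 42.3 CPM in KC and to 141 and 335 CPM in KMC, where all 4 were higher at an unadjusted p under 0.05, edgeR called 0 and DESeq2 called 4. Over all genes tested, 7.47% were lower in HC and 16.1% higher in KMC at an edgeR unadjusted p under 0.05. DESeq2 called 1.21% of all genes lower in HC and 9.93% higher in KMC. Laptm5 was the most abundant of the 4 markers per kilobase in each table, and none of them was at 0. Their part in the differences of the GTPases was not tested.

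Set against Ptprc, the leukocyte surface phosphatase CD45, the summed GTPase level was 5.82, 3.74 and 8.61 times the level of Ptprc in B control and 4.19, 8.64 and 7.10 times in MC. The ratio was 2.37 and 2.57 in WT control and 2.80, 4.19 and 2.82 in the libraries labelled HC, above both controls in each. It was 13.5 and 4.28 in KC and 3.67 and 1.96 in KMC, below both controls in each. Ptprc itself had a log2 fold change of -0.95 (SE 0.28, edgeR adjusted p 0.195) in HC and 2.78 (SE 0.59, edgeR adjusted p 0.0796) in KMC. In HC 8 of the 10 GTPase genes had a log2 fold change above that of Ptprc and in KMC 0 of 10 did, where their median was 1.09 below it. Most of the GTPase genes thus differed by less than Ptprc between groups in the HC and KMC tables, and this was not tested. In MC, by which the genes were chosen, 8 of 10 were above Ptprc (median 0.37 above it).

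**Figure D3:**
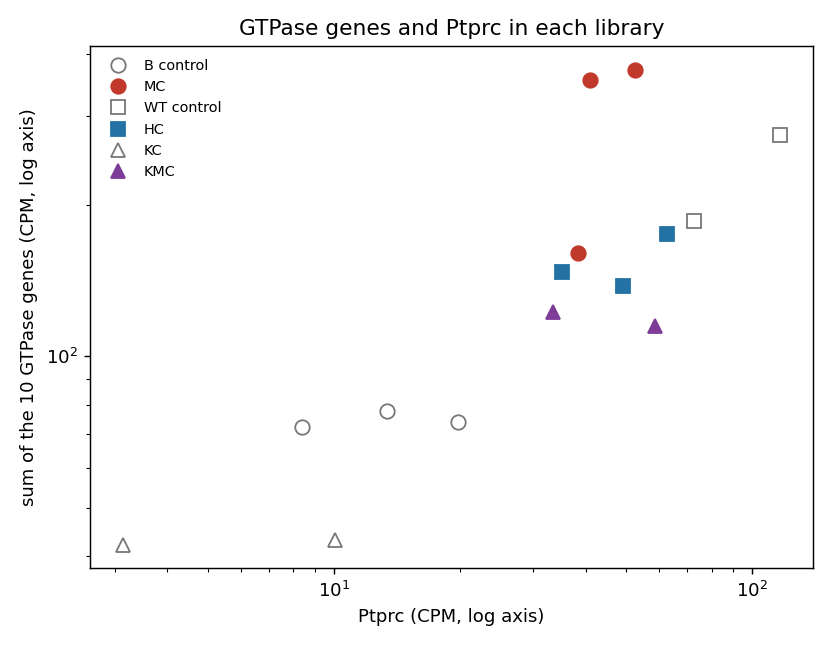
Summed level of the 10 GTPase genes (y axis, CPM) against the level of Ptprc (x axis, CPM) in each of the 15 libraries, both on log axes, with symbols for the 6 groups. The KC libraries lie at 3.13 and 10.1 CPM of Ptprc with sums of 42.2 and 43.0 CPM, and KMC libraries at 33.4 and 58.6 CPM of Ptprc with sums of 122.6 and 114.7 CPM.

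Macrophage markers (10 genes, Lyz2 the most abundant per kilobase) summed to 698, 1388 and 558 CPM in B control, 1140, 1166 and 1597 CPM in MC, 4539 and 2688 CPM in WT control, 1733, 1915 and 2615 CPM in HC, 367 and 318 CPM in KC, and 999 and 3100 CPM in KMC. In HC all 10 had a negative log2 fold change (7 at an unadjusted p under 0.05), and in KMC all 10 had a positive one (10 at an unadjusted p under 0.05); edgeR called 0 in both, and DESeq2 called 0 in HC and 10 in KMC. Neutrophil markers (8 genes, S100a9 the most abundant per kilobase) summed to 24.4, 54.9 and 7.32 CPM in B control, 25.7, 42.8 and 29.9 CPM in MC, 114 and 86.8 CPM in WT control, 51.2, 60.5 and 64.4 CPM in HC, 1.84 and 5.46 CPM in KC, and 19.3 and 38.8 CPM in KMC. Of the 7 neutrophil genes tested, 5 were lower in HC and 6 higher in KMC at an unadjusted p under 0.05, edgeR called 0 and DESeq2 called 0 and 5; Ly6g was at 0 in both WT control libraries, in HC libraries 1 and 3 and in both KC libraries, and Camp was at 0 in HC library 2. Over all genes tested, 7.47% were lower in HC and 16.1% higher in KMC at an edgeR unadjusted p under 0.05. DESeq2 called 1.21% of all genes lower in HC and 9.93% higher in KMC. By the sign of their log2 fold changes, most myeloid markers lay to the same side as the GTPase genes in HC and in KMC.

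T cell markers (9 genes, led per kilobase by Trbc2 in the HC and KMC tables and by Cd2 in the MC table) summed to 2.61, 3.22 and 2.25 CPM in B control, 12.9, 8.25 and 10.5 CPM in MC, 78.3 and 42.2 CPM in WT control, 60.9, 24.5 and 22.0 CPM in HC, 3.81 and 4.14 CPM in KC, and 14.4 and 16.2 CPM in KMC. In HC 8 of 9 had a negative log2 fold change and 0 had an unadjusted p under 0.05; in KMC 8 of 9 were higher at an unadjusted p under 0.05; edgeR called 0 in both, DESeq2 called 0 and 2, and Cd8a and Cd8b1 were at 0 in KC library 1. NK cell markers (8 genes, led per kilobase by Nkg7 in each table) summed to 1.45, 1.94 and 1.39 CPM in B control, 6.05, 5.73 and 9.16 CPM in MC, 14.9 and 10.6 CPM in WT control, 18.3, 2.38 and 3.46 CPM in HC, 2.18 and 1.39 CPM in KC, and 3.93 and 4.04 CPM in KMC. HC library 1 held more NK cell marker RNA than either control and the other HC libraries held less. Of the NK cell genes, 1 of 6 tested in HC and 0 of 7 in KMC had an edgeR unadjusted p under 0.05. edgeR and DESeq2 called 0 of them, and Ncr1 was at 0 in B control library 3 and Gzmb in KC library 1. Over all genes tested, 7.47% were lower in HC and 16.1% higher in KMC at an edgeR unadjusted p under 0.05. DESeq2 called 1.21% of all genes lower in HC and 9.93% higher in KMC.

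B cell markers (7 genes, Cd79a the most abundant per kilobase) summed to 2.22, 1.91 and 1.21 CPM in B control, 69.9, 15.6 and 2.89 CPM in MC, 23.7 and 42.2 CPM in WT control, 13.2, 15.5 and 15.1 CPM in HC, 0.885 and 10.2 CPM in KC, and 19.7 and 12.7 CPM in KMC. MC library 1, with the lowest GTPase sum of its group, held the most B cell marker RNA. Cd79a, a chain of the B cell receptor, was lower in the libraries labelled HC (log2 fold change -1.31, SE 0.19, edgeR adjusted p 0.0499), the only gene of the marker lists that edgeR called there. That adjusted p lay just under the threshold of 0.05, and without HC library 2 edgeR called 0 of all genes in HC. In KMC edgeR and DESeq2 called 0 of the 7, of which 1 had an unadjusted p under 0.05. Fcer2a was at 0 in B control library 3, and Pax5, Cr2 and Fcer2a were at 0 in KC library 1. Beside these and the fibroblast markers, 7.47% of all genes were lower in HC at an edgeR unadjusted p under 0.05. In KMC 16.1% of all genes were higher at that limit. DESeq2 called 1.21% of all genes lower in HC and 9.93% higher in KMC. Fibroblast markers (7 genes, led per kilobase by Col3a1, or by Col1a1 in the HC table) summed to 1180, 2379 and 974 CPM in B control, 1920, 2656 and 2834 CPM in MC, 10540 and 9247 CPM in WT control, 8189, 4655 and 9920 CPM in HC, 424 and 884 CPM in KC, and 2121 and 6208 CPM in KMC; edgeR called 0 in HC and KMC, 1 was lower in HC and 6 were higher in KMC at an unadjusted p under 0.05, and DESeq2 called 0 and 6.

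Endothelial markers (7 genes, led per kilobase by Pecam1, or by Cdh5 in the HC table) summed to between 107 and 147 CPM in the MC table, 374 and 475 CPM in WT control, 255 to 361 CPM in HC, 93.8 and 102 CPM in KC, and 111 and 190 CPM in KMC; edgeR called 0, with 1 gene in HC and 2 in KMC at an unadjusted p under 0.05, and DESeq2 called 0 and 1. Ductal markers (9 genes, Spp1 the most abundant per kilobase) summed to 1162 to 1984 CPM in the MC table, 4971 and 5256 CPM in WT control, 5546 to 6760 CPM in HC, 538 and 465 CPM in KC, and 627 and 882 CPM in KMC. Islet markers (8 genes, led per kilobase by Ins2, or by Ppy in the HC table) summed to 1018 to 2199 CPM in the MC table, 2955 and 3178 CPM in WT control, 3525 to 5621 CPM in HC, 3080 and 1593 CPM in KC, and 1492 and 773 CPM in KMC. edgeR called 0 genes of either list; at an unadjusted p under 0.05, 3 ductal and 3 islet genes were higher in HC, and in KMC 3 ductal genes were higher, 1 was lower and 0 islet genes passed, while DESeq2 called 1 ductal gene in HC, and 4 ductal genes and 1 islet gene in KMC. Of the 28 acinar genes (Ctrb1 the most abundant per kilobase), all 28 had a negative log2 fold change in KMC, 27 without overlap; edgeR called 0, 3 had an unadjusted p under 0.05 and DESeq2 called 26, while of all 15733 genes tested 4855 were lower without overlap, 1492 were lower at an unadjusted p under 0.05 and DESeq2 called 596 lower, whereas in HC edgeR called 0, 1 had an unadjusted p under 0.05 and DESeq2 called 1. The sums of ductal and islet markers in HC were thus on the opposite side to the GTPase genes. At an edgeR unadjusted p under 0.05, 1544 of the 18407 genes tested were higher and 1375 lower in HC. In KMC 2535 of the 15733 genes tested were higher at that limit. DESeq2 called 1.21% of all genes lower in HC and 9.93% higher in KMC.

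The GTPase genes lie in few places of the genome (GRCm38). Gbp5, Gbp7, Gbp3 and Gbp2 stand in that order on the plus strand of chromosome 3, within chr3:142493978-142638008. Gbp9 and Gbp6 lie on the minus strand of chromosome 5, within chr5:105077630-105293698. On chromosome 11, Irgm1 lies on the minus strand at chr11:48861968-48871683, and Igtp and Irgm2 lie on the plus strand within chr11:58199556-58222782. Iigp1 is on chromosome 18. In KMC the fitted log2 fold changes within the chromosome 3 cluster ran from 1.18 (Gbp2, SE 0.34) to 2.69 (Gbp7, SE 0.52). Whether genes of 1 cluster differed in size of change was not tested.

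Promoter sequences of RefSeq (GRCm38.p6) were found for 7 of the 10 members, with 8 starts because Gbp3 has a pair, and not for Gbp6, Gbp9 and Iigp1. The 250 bases before each start were searched on both strands for 2 motifs through which interferons act: an ISRE-type motif (GAAA, any 2 bases and a second GAAA) and the GAS motif (TTC, any 3 bases and GAA). ISRE-type letters stood in 7 of the 8 windows, those of all 7 members, and in 2.98% of the 32851 promoters of the table. GAS letters stood in the windows of 4 members (Gbp5, Gbp7, Igtp and Irgm2), and in 7.02% of promoters. Both motifs stood together in these 4 and in 0.332% of promoters. A match is a description of the letters and does not show that a factor binds there.

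The stretches below are shown because the shared motif, absent from most promoters, recurs close to the start of each of these genes. Each line gives 30 bases from 5′ to 3′ on the strand of the gene with the ISRE-type letters in capitals, which read as the motif itself in Irgm1, Igtp and Irgm2 and as its complement on the other strand in the GBPs. In Gbp5 (chr3:142496759-142496788, plus strand) the match ended 155 bases before the start, in Gbp7 (chr3:142530273-142530302, plus) 43, in Gbp3 (chr3:142559989-142560018, plus) 35 and in Gbp2 (chr3:142620594-142620623, plus) 49. In Irgm1 (chr11:48871425-48871454, minus) the distance was 14, in Igtp (chr11:58199512-58199541, plus) 24 and in Irgm2 (chr11:58214903-58214932, plus) 54. Those of Gbp2 and Irgm1 lie in an annotated exon, since other transcripts start farther upstream. Gbp3 and Irgm1 each hold a second, overlapping match.
Gbp5: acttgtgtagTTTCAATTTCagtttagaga
Gbp7: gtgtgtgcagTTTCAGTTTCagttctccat
Gbp3: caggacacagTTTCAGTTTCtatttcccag
Gbp2: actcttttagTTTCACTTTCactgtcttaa
Irgm1: tcaagaaataGAAACCGAAActgattctca
Igtp: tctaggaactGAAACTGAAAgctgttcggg
Irgm2: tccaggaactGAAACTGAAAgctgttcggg

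Igtp and Irgm2 hold the same ISRE-type letters with nearly the same flanks, and the longest run of bases shared by their promoter windows was 55 of 250. In both a GAS match lies just upstream of the ISRE-type match, without overlap. In Gbp5 the 2 GAS matches ended 236 and 43 bases before the start, and in Gbp7 they ended 97 and 78 bases before it.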

How the data were processed

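The authors deposited gene-level raw counts in 3 tables: 100-base paired reads were aligned to GRCm38 with STAR (2.6.1a; HTSeq 0.6.1 is also named in the submitters' notes) and summed over GENCODE genes. A file with the authors' own DESeq2 comparison (fold changes and p-values) was not used. Groups followed the labels. Each table was fitted alone in R 4.3.3 with edgeR 4.0.16 (filterByExpr, TMM, quasi-likelihood test) with Benjamini-Hochberg adjustment over all genes tested; a gene was called at an adjusted p of at most 0.05 and a log2 fold change of at least 1 in size. DESeq2 1.42.0, other scalings, no filter, a replicate block and each library left out were alternatives. The fits were tested on simulated data. Gene symbols came from identifiers (49326 of 49585 matched) and exon lengths from GENCODE M21; promoters came from RefSeq.

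The members and lists (other GTPases, interferon signalling, interferon gamma targets, type I interferon genes, effector partners and the cell type markers) were chosen with earlier results of these data known. The text names all members, Map4k1, every gene measured of the list of other GTPases, the smallest p in HC and KMC and the most abundant gene of each further list, Ifng, Ifngr1, Ifngr2, Irf1 and Irf8, some of the genes nearest by pattern and the most abundant gene of each marker list. Other names were added after their values were seen. Sequence shared between genes was looked for after the data were seen.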

Additional observations from a re-analysis of the deposited data

How the results depend on the processing

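With each alternative in turn, the log2 fold changes of the members kept their sign in 118 of 120 values in HC against WT control and in all 110 in KMC against KC; Gbp2 (0.0116) and Gbp5 (0.0006) turned in HC without WT control replicate 1, and were -0.7341 and -0.7214 without replicate 2, where the single control is assumed to vary like the other group. In HC, 104 genes were called by edgeR, 482 (272 higher, 210 lower) by DESeq2, 395 with no filter, 49 with library size without acinar genes and 339 with the replicate block; leaving out 1 library gave 0 to 379. Members called in HC were 0, and 1 (Iigp1) by DESeq2 and with no filter; the median without 1 library ran from -0.82 to -0.30. In KMC, 3 genes were called, 2130 (1534 higher, 596 lower) by DESeq2, 4714 (4694 higher) with library size alone, 1470 without acinar genes, 9 with no filter and 2464 with the block; leaving out 1 library gave 0 to 2312. Members called were 0, and 8, 10, 9 and 9 by DESeq2, scaling on library size, the same less acinar genes, and the block, and 0 to 5 without 1 library. The median of 1.69 was 3.11 with library size alone and 2.20 without acinar genes, scalings that raise all genes, and 1.53 to 1.86 without 1 library. In MC, 0 genes were called, 475 by DESeq2, 1 with library size alone and 0 to 718 without 1 library. The cause of these shifts was not tested. Deviations of same-numbered libraries had correlations of mixed sign in MC (r of 0.06, 0.29 and -0.29) and small positive ones in HC (0.19 and 0.16) and KMC (0.04); nothing in the labels says that the numbers pair libraries, so the block stands here only.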

Other observations

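Genes next to the GTPase loci, chosen after their values were seen, did not all lie to the same side as they did. On either side of the chromosome 3 cluster, Pdlim5 had log2 fold changes of 0.25 in HC and 0.81 in KMC, and Kyat3 of -0.10 and -1.11. Beside the chromosome 5 cluster, Abcg3 had -1.26 and 3.24, and Lrrc8b 0.27 and -0.13. Beside Irgm1, Trim7 had -0.21 and -0.65 and Gm5431 had -1.27 and 2.23. Beside Igtp and Irgm2, Mrpl22 had 0.01 and -0.84, and Zfp692 0.33 and -0.26. Beside Iigp1, Gm4841 had -0.33 and 3.77, and Smim3 had -0.55 and -0.33. Gm5431 and Gm4841 were not on the list of further family genes above, and whether they belong to these GTPase families was not checked. They are therefore not taken as unrelated genes. No p-value is given for these neighbours.

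Gsdmd, which encodes the pore-forming protein gasdermin D cleaved by caspases 1 and 11, was named after its values were seen. It was at 62.8 and 57.0 CPM in WT control and at 88.4, 105.6 and 96.2 CPM in the libraries labelled HC, each above both controls (log2 fold change 0.69, SE 0.11, edgeR adjusted p 0.0596). The GTPase genes had values below 0 in the same libraries. It was at 1.63 and 3.25 CPM in KC and at 6.78 and 13.8 CPM in KMC (log2 fold change 2.05, SE 0.52, edgeR adjusted p 0.0966).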
